A study of Mus musculus with 4 samples.

Results

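Protein kinase C (PKC) and RasGRP1 genes were examined in CD8+ T cells: Prkca, Prkcb, Prkcd, Prkce, Prkch, Prkcq and Rasgrp1. They were chosen by name as genes of phorbol ester receptors and are 7 of the 21627 protein-coding genes in the gene table used. The peaks of each gene were those in its body and 20 kb on either side, called its locus here. Their loci held 17 of the 15237 regions of accessible DNA found in the study.

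The cells were CD8+ lymphocytes of Balb/c mice, and the series title calls them tumour-infiltrating. ATAC-seq, an assay that marks open chromatin by letting the Tn5 transposase cut and tag it, was done on 1 library in each of 4 conditions. These were stimulated cells with phenelzine, stimulated untreated cells, unstimulated cells with phenelzine, and unstimulated untreated cells. Cells were stimulated for 2 h with PMA (phorbol myristate acetate) together with ionomycin, a calcium ionophore. The labels give 1 mg/mL PMA and 10 mM ionomycin and do not say whether these were stock or final concentrations. Phenelzine blocks monoamine oxidases and the related histone demethylase LSD1. The sources used here do not give its dose and timing, the tumour, the number of animals or a sort of the cells.

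PMA imitates diacylglycerol, the membrane lipid that phospholipase C makes after the T cell receptor is engaged. Both bind the C1 domains of PKC enzymes and of RasGRP proteins and draw them to the membrane. The PKC enzymes encoded by Prkca and Prkcb also need calcium, which ionomycin lets into the cell, while those encoded by Prkcd, Prkce, Prkch and Prkcq do not. In T cells PKC theta, the product of Prkcq, gathers at the contact with the antigen-presenting cell and activates NF-kB. RasGRP1 is an exchange factor that loads Ras with GTP and so starts the MAP kinase cascade.

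The peak lists of the 4 libraries held 9322 peaks in stimulated phenelzine, 10405 in stimulated untreated, 7929 in unstimulated phenelzine and 6519 in unstimulated untreated cells on chromosomes 1 to 19 and X. The background coverage implied by the lists, a stand-in for depth, was a pileup of 0.489, 0.493 and 0.471 in the first 3 and 0.392 in unstimulated untreated cells. Among 7 marker genes of CD8 T cells, Cd8a, Cd8b1 and Cd2 had no region in any list, and the other 4 had 3 to 6 regions per list summed over their loci. In such sums a region in overlapping loci counts once for each gene. Cd3d and Cd3g, both on chromosome 9, had equal counts in every list. The 4 B cell markers had 2 to 4 per list, the 3 markers of CD4 and regulatory T cells 2 to 4, the 4 myeloid markers 1 to 2, the 4 epithelial markers 0 to 2, the 2 NK cell markers 0 to 1 and the 4 stromal and endothelial markers 0 to 1. Epcam, Krt18, Col1a1, Cdh5, Ms4a1, Cd79b, Itgam and Ncr1 were at 0 in all 4 lists. In the order stimulated phenelzine, stimulated untreated, unstimulated phenelzine and unstimulated untreated, the epithelial markers summed to 2, 1, 0 and 0 regions, from Krt8 (1, 1, 0 and 0) and Cdh1 (1, 0, 0 and 0). The NK cell markers summed to 1, 1, 0 and 0, all from Klrb1c. The markers of CD4 and regulatory T cells summed to 3, 4, 3 and 2. Foxp3 had 1, 1, 0 and 0 and Cd4 had 0, 1, 0 and 0. Zbtb7b had 2, 2, 3 and 2. The CD8 T cell markers summed to 3, 6, 5 and 3 and the B cell markers to 2, 4, 3 and 4. With stimulation the epithelial, NK cell and myeloid sums were higher in both drug arms, as at the PKC genes. In phenelzine-treated cells the CD8 T cell and B cell sums were lower with stimulation. The part of these markers in the results was not tested. Since each condition had 1 library, conditions were compared by counts and not tested, and a peak held by fewer cells cannot be told apart from a weaker peak in every cell.

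RefSeq promoter windows (GRCm38.p6, which is mm10), 250 bases before to 50 after a start site, were matched for 5 of the 7 genes by symbol. The bases before the start are shown for 3 genes. Prkca and Prkcd are shown because peaks of both stimulated lists lay on them, and Rasgrp1 because no list had a peak there. The sequences run 5′ to 3′ on the minus strand, and capitals mark the bases covered by the peaks of both stimulated lists.
Prkca, chr11:108343889-108344138: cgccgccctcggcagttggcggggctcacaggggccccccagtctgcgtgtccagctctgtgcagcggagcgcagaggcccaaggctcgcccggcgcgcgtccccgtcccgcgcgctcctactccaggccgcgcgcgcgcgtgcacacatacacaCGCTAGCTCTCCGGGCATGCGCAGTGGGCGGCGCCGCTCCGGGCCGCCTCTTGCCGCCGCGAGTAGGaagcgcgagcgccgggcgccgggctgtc
Prkcd, chr14:30626209-30626458: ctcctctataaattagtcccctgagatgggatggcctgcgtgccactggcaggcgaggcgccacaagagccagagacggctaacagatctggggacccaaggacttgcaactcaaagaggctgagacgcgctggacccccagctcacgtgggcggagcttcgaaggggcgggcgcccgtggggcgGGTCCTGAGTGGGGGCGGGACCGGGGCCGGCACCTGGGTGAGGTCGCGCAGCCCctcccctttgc
Rasgrp1, chr2:117342878-117343127: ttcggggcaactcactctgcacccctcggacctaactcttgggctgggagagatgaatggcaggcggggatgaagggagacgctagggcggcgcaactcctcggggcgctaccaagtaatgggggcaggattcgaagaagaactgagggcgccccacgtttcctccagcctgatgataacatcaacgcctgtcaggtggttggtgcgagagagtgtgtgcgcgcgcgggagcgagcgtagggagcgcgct

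The capitals span 67 bases at Prkca and 54 bases at Prkcd. The gene body of Prkcd in the gene table reaches position 30626414, so most of its printed stretch lies inside the annotated gene. Letters were searched on both strands of the 6 promoter windows of Prkca, Prkcb, Prkcd (2 windows), Prkcq and Rasgrp1. The GC box GGGCGG occurred in 5 of 6 windows, against 46.7% of 21044 promoter windows of protein-coding genes. At Prkca a GC box began 70 bases before the start, inside the capitals, and another began 248 bases before it. At Prkcd GC boxes began 101, 85, 70 and 53 bases before the start, the last of them inside the capitals and the one at 70 with 1 of its 6 bases in them. Rasgrp1 had a GC box 165 bases before its start with no peak over it. The AP-1 letters TGACTCA or TGAGTCA, the ETS letters CCGGAAG, the RUNX letters TGTGGT and the NFAT letters TGGAAA were in 0 of the 6 windows, against 4.69%, 11.7%, 14.75% and 19.5% of all windows. The GC content was 75.3% at Prkca, 73% at Prkcq, 69.3% at the upstream start of Prkcd, 65.3% at Prkcb, 63.7% at Rasgrp1 and 51.3% at the second start of Prkcd. The median was 62% for the 6716 windows with a peak in any list and 53% for the 14328 without. Prkcb, Prkcq and Rasgrp1 had no peak in these windows although their GC content was above 62%.

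Prkch, which encodes PKC eta, held 8 of the 17 regions, and Prkcq and Rasgrp1 held none. Summed over the 7 loci, there were 11 regions in stimulated phenelzine, 10 in stimulated untreated, 6 in unstimulated phenelzine and 5 in unstimulated untreated cells. Stimulated lists held more regions than unstimulated lists in both drug arms, and the lists with and without phenelzine differed by 1. Each region is the union of peaks that overlapped by at least 1 bp.

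**Figure D1:**
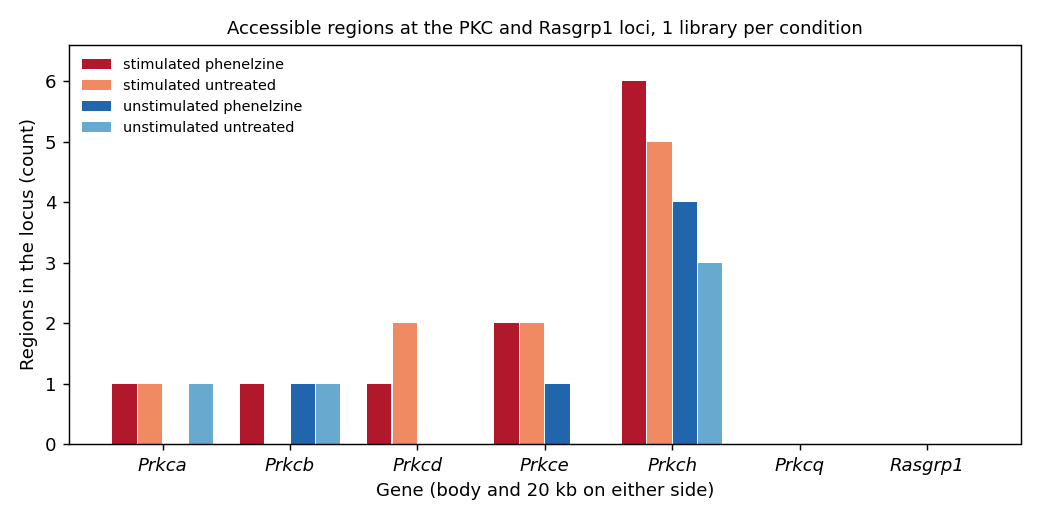
Number of accessible regions in the locus of each gene (vertical axis) for the 4 libraries (bars, 1 library each, so no error bars). Prkch has 6, 5, 4 and 3 regions from left to right, and Prkcq and Rasgrp1 have 0 in every list.

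Prkca encodes the calcium-dependent PKC alpha. A region at its start, on chromosome 11 from 108343883 to 108344003, was formed by a peak of each stimulated list and held by neither unstimulated list. The stimulated phenelzine peak ended 29 bp before the start site and the stimulated untreated peak covered it. In stimulated phenelzine cells that peak had a fold enrichment over local background of 5.53 and a −log10 q of 3.86, and in stimulated untreated cells 4.25 and 1.93. These values are the authors' and belong to the list they come from. The peaks ranked 2661 of 9322 and 8001 of 10405 in their lists by −log10 q. A second region, 70 bp wide and 126585 bp inside the gene from that end, on chromosome 11 from 108217234 to 108217303, was in the unstimulated untreated list alone, with fold 4.59 and −log10 q 2.23. The closest peak of the unstimulated phenelzine list lay 21493 bp outside the gene body, just beyond the locus.

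Prkcb encodes PKC beta, the other calcium-dependent enzyme of the set, which in B cells links the antigen receptor to NF-kB. Its body of 345299 bp on chromosome 7 held 3 regions, 68 to 80 bp wide, each in a single list. They lay 40.65 kb inside the gene from its start end in unstimulated untreated cells (fold 4.73, −log10 q 2.45), 121.73 kb inside from its far end in unstimulated phenelzine cells (4.30 and 1.81), and 38.36 kb inside from its far end in stimulated phenelzine cells (3.93 and 1.40). No list had a peak within 1 kb of either end. The stimulated untreated list had no peak in the locus, and its closest peak was 28724 bp outside the gene.

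Prkcd encodes PKC delta, which in B cells restrains self-reactive clones. It had 1 region in stimulated phenelzine and 2 in stimulated untreated cells, against 0 in both unstimulated lists. The region shared by both stimulated lists, on chromosome 14 from 30626185 to 30626355, lay at the upstream start printed above. The stimulated phenelzine peak ended 12 bp before the start site, and the stimulated untreated peak covered it. Its peak had fold 4.03 and −log10 q 1.59 in stimulated phenelzine cells, rank 7974 of 9322, and 5.29 and 3.75 in stimulated untreated cells, rank 3761 of 10405. At the Prkca start it was the stimulated phenelzine peak that stood higher in its own list. The other region, 358 bp wide and the widest peak of the set, lay 9232 bp beyond that end of the gene on chromosome 14 from 30635646 to 30636003, in stimulated untreated cells alone (fold 4.19, −log10 q 1.83). The second start of Prkcd in the promoter table, at position 30610310, had no peak.

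Prkce encodes PKC epsilon and has the longest body of the 7 genes, 490135 bp. It had 2 regions in stimulated phenelzine, 2 in stimulated untreated, 1 in unstimulated phenelzine and 0 in unstimulated untreated cells. The first lay 85 bp outside the gene end with the lower coordinate, on chromosome 17 from 86167477 to 86167700. Its fold and −log10 q were 4.18 and 1.75 in stimulated phenelzine, 4.24 and 1.91 in stimulated untreated and 5.06 and 2.97 in unstimulated phenelzine cells. The unstimulated phenelzine peak was the highest ranked peak of the set in that list, at 3477 of 7929. The second region, on chromosome 17 from 86444899 to 86445212, was in the 2 stimulated lists alone, with 4.03 and 1.46 in stimulated phenelzine and 4.17 and 1.76 in stimulated untreated cells. The stimulated phenelzine peak covers the start of Gm30284, a long non-coding RNA gene on the minus strand inside Prkce, and the stimulated untreated peak lies 37 bp from it, so the region cannot be assigned to either gene. In unstimulated untreated cells the closest peak to Prkce was 304552 bp away, 571 bp from an end of Rhoq.

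Prkch encodes PKC eta. Its locus on chromosome 12 held 6 regions in stimulated phenelzine, 5 in stimulated untreated, 4 in unstimulated phenelzine and 3 in unstimulated untreated cells. Over the 4 lists this was 3.43 regions per 100 kb of locus, against a median of 1.10 over all protein-coding genes. The density was at or below that of Prkch at 82.4% of all genes. The median over the 7 genes was 0.444 per 100 kb, with a median locus of 233 kb. Among genes with loci at least as long as the shortest of the set it was 0.867, with a median locus of 108 kb. Counted per locus, the order was the other way, with a median of 2 regions at the 7 genes against 1 at those genes. At least 8 regions were found at 52 of the 21627 genes (0.240%) and at 0.464% of the 7324 genes with loci of at least 71.1 kb, the shortest of the set. In all, 29 genes had more than 8. The other protein-coding gene in the locus, LOC115488016, overlaps the lower end of Prkch, and the next gene beyond the upper end was Hif1a, 107011 bp past the last region.

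Both regions that all 4 lists held at these genes were at Prkch. The stronger lay 1139 bp beyond its upper end, from 73779324 to 73779586. Its −log10 q was 5.24 in stimulated phenelzine, 3.12 in stimulated untreated, 2.11 in unstimulated phenelzine and 1.49 in unstimulated untreated cells, with folds of 6.30, 4.99, 4.50 and 4.06. In its own list it ranked in the top 14.04%, 46.4%, 65.8% and 94.9%, in the same order. The stimulated phenelzine peak there was the strongest of all 32 peaks of the 7 genes. The other region of all 4 lists, 22.23 kb inside the gene from that end, from 73755616 to 73755952, had −log10 q of 2.38, 2.34, 1.47 and 2.38 in the same order of lists.

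Further regions at Prkch were held by fewer lists. Regions of both stimulated lists and no unstimulated list lay from 73620107 to 73620275 inside the gene and from 73790666 to 73790896, 12.48 kb beyond its upper end. The second had fold 5.77 and −log10 q 4.64 in stimulated phenelzine cells, rank 1787 of 9322, but 3.63 and 1.05 in stimulated untreated cells, rank 10390 of 10405, next to the end of that list. The region from 73715954 to 73716117 was missing from stimulated untreated cells only, with −log10 q of 2.48 in stimulated phenelzine, 1.32 in unstimulated phenelzine and 1.70 in unstimulated untreated cells. At the lower gene end, 100 bp outside the body, a peak was in stimulated untreated cells alone (fold 4.41, −log10 q 2.11). The same sequence lies inside LOC115488016, so it cannot be assigned to either gene. A peak 13.62 kb inside the gene was in stimulated phenelzine cells alone (5.11 and 3.18), and one 16.03 kb beyond the upper end in unstimulated phenelzine cells alone (4.12 and 1.60).

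**Figure D2:**
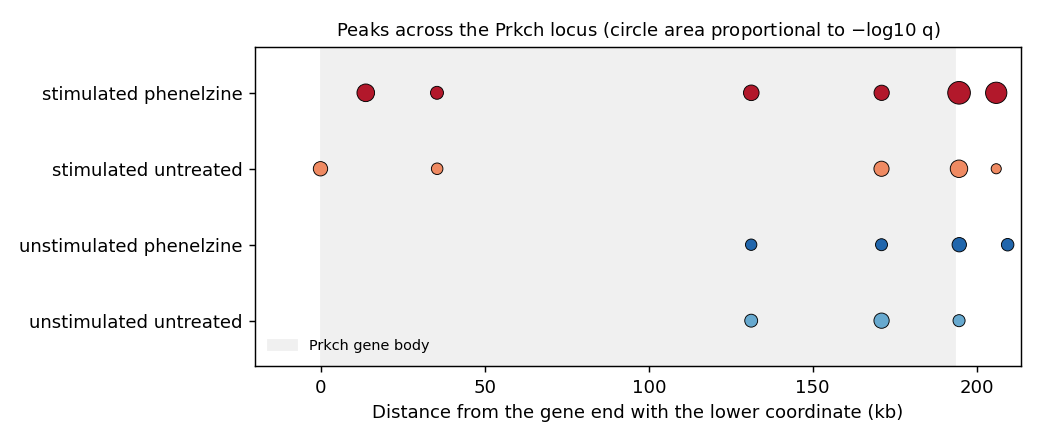
Peaks of the 4 lists (rows) along the Prkch locus, by distance in kb from the gene end with the lower coordinate, with circle area proportional to −log10 q and the gene body shaded. The peak 1139 bp beyond the upper end is in all 4 lists, and its circle is largest in stimulated phenelzine cells (5.24) and smallest in unstimulated untreated cells (1.49).

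Prkcq and Rasgrp1 encode the PKC and RasGRP proteins best known from T cell receptor signalling, and no list had a peak in their loci of 169 and 103 kb on chromosome 2. The Rasgrp1 locus also takes in an end of Fam98b, which had no peak either. Among all protein-coding genes 41.9% had no region in any list, and among the 7324 with loci at least as long as the shortest of this set (71.1 kb) 34.9% had none. The closest peaks to the Prkcq body were 128470 bp away in stimulated phenelzine, 32234 bp in stimulated untreated, 73954 bp in unstimulated phenelzine and 128463 bp in unstimulated untreated cells. For Rasgrp1 they were 143577, 159203, 143636 and 289654 bp away, in the same order. Absence from a list says that no peak passed the authors' threshold at this depth, not that the DNA was closed.

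The 32 peaks in the 17 regions were weak for their lists. Their median −log10 q was 1.92, with a range of 1.05 to 5.24, and 17 of 32 were under 2. By list the median was 2.38 in stimulated phenelzine, 1.92 in stimulated untreated, 1.71 in unstimulated phenelzine and 2.23 in unstimulated untreated cells, against medians over all peaks of 2.68, 2.93, 2.69 and 2.95. A −log10 q of at least 3 was reached by 4 of 11 peaks in stimulated phenelzine and 2 of 10 in stimulated untreated cells, and by 0 of 6 and 0 of 5 in unstimulated phenelzine and unstimulated untreated cells. Together this was 6 of 21 peaks in the stimulated lists (28.6%, exact 95% interval 11.3 to 52.2) and 0 of 11 in the unstimulated lists, which allows a share of up to 27.3% by a limit of 3 counts and 28.5% by the exact interval. The shares over all peaks of the 4 lists were 43.3%, 48.6%, 43.2% and 48.8%. These intervals cover counting error only and take the peaks as independent, which they were not. The stimulated lists shared 8 regions, and each of those gave a peak to both lists. The strong peaks with −log10 q of 5.24, 4.64, 3.18 and 3.12 were all at Prkch. The others were at Prkca (3.86) and Prkcd (3.75). With 1 library per condition the spread between libraries cannot be seen.

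**Figure D3:**
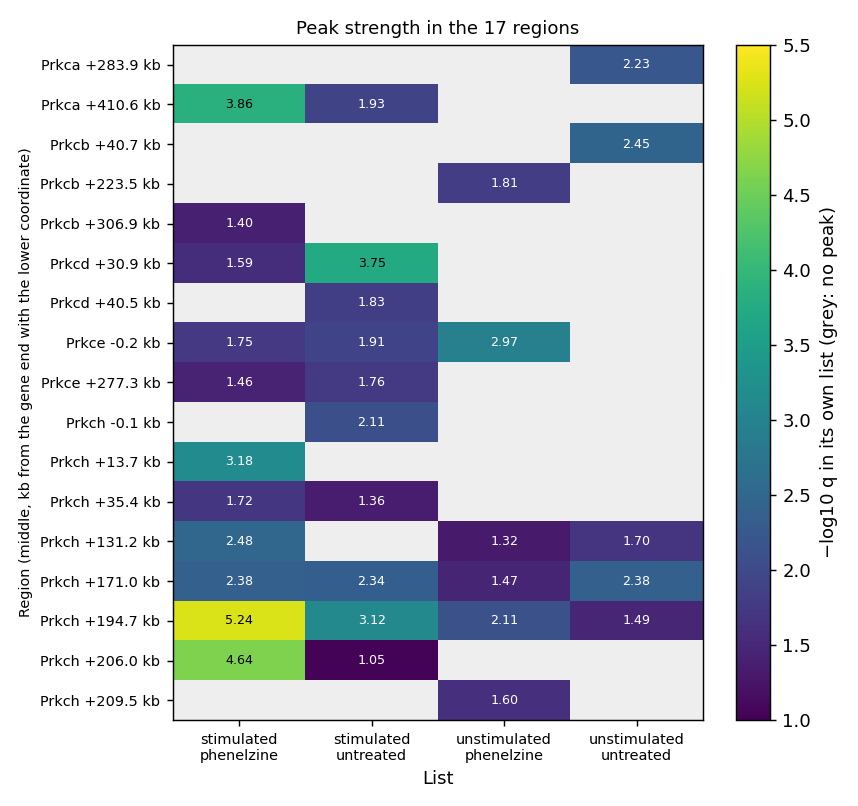
The −log10 q of the peak in each of the 17 regions (rows, named by gene and by the distance of the region's middle from the gene end with the lower coordinate) in each list (columns), with grey where a list had no peak. The 6 values of at least 3 are all in the 2 stimulated columns, and 5 rows are filled in both stimulated columns and grey in both unstimulated ones.

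**Figure D4:**
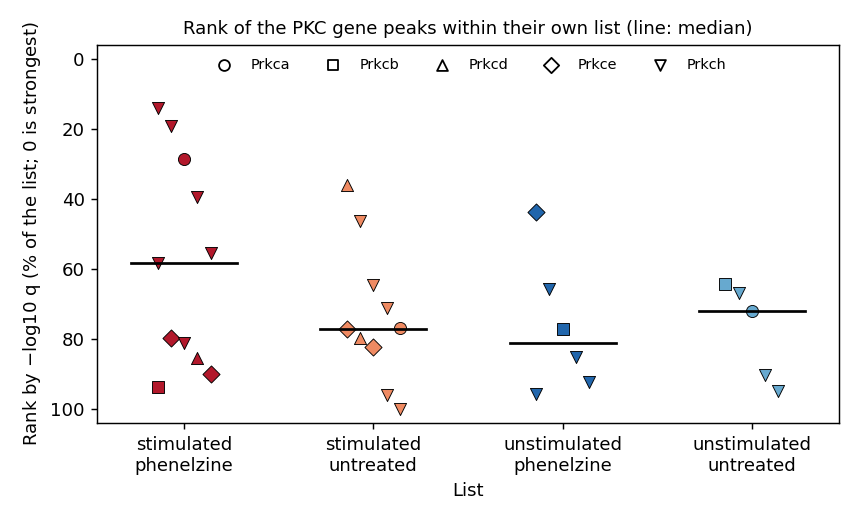
Rank of each peak in the loci of the 5 genes with peaks, as a percent of its own list ordered by −log10 q (0 is strongest, axis reversed so that stronger is higher), with a line at the median. The median rank was 58.3% in stimulated phenelzine, 77.1% in stimulated untreated, 81.1% in unstimulated phenelzine and 71.9% in unstimulated untreated cells.

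The first comparison asked which of these loci differed after stimulation in untreated cells. Prkcd and Prkce each had 2 regions in stimulated untreated cells against 0 in unstimulated untreated cells, and Prkch had 5 against 3. Prkcb had 0 against 1, and Prkca had 1 in each list, but at different places. Thus 3 of 7 genes had more regions, against 23.6% of all protein-coding genes and 28.3% of those with loci of at least 71.1 kb. Fewer regions were found at 1 of 7, against 4.53% of all genes and 5.13% of those with long loci. By region, 8 were in the stimulated list alone, against 43.9% of the 11576 regions in either list, 3 were in the unstimulated list alone, against 10.3%, and 2 were in both. The sum of 10 regions against 5 depended on the setting. With each list limited to its 6519 strongest peaks the sums were 2 in stimulated untreated and 5 in unstimulated untreated cells, which turns the direction. That limit shortened the stimulated list only. Within gene bodies alone the sums were 5 and 4. With −log10 q of at least 3 they were 2 and 0, and with flanks of 50 kb they were 17 and 6.

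In phenelzine-treated cells 4 of 7 genes had more regions after stimulation, against 16.0% of all protein-coding genes and 18.9% of those with long loci, and 0 of 7 had fewer, against 9.56% and 11.6%. Prkch had 6 regions in stimulated phenelzine cells against 4 in unstimulated phenelzine cells, Prkce 2 against 1, and Prkca and Prkcd 1 against 0. Prkcb had 1 in each, at different places. The stimulated list alone held 7 regions, against 31.9% of all 11594 in either list, 2 were in the unstimulated list alone, against 19.9%, and both held 4. The sums of 11 and 6 kept their order with lists of equal size, at 6 in stimulated phenelzine and 3 in unstimulated phenelzine cells.

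Gene-end peaks, within 1 kb of either end of the body, were found mainly in the stimulated lists. Prkca, Prkcd, Prkce and Prkch had one in stimulated untreated cells and none of the 7 genes had one in unstimulated untreated cells, a difference shown by 8.12% of all genes. The peak counted for Prkch is the one inside LOC115488016 that cannot be assigned to either gene. The Prkch region of all 4 lists, 1139 bp beyond its upper end, falls just outside the 1 kb window and was not counted. None of the 7 had the reverse, against 1.92% of all genes. In stimulated phenelzine cells Prkca, Prkcd and Prkce had one, against Prkce alone in unstimulated phenelzine cells. The 2 genes gained there compare with 5.49% of all genes, and none was lost, against 3.69%. Between the unstimulated lists, Prkce gained one with phenelzine (5.88% of all genes) and none was lost (3.36%). Between the stimulated lists, none was gained with phenelzine (3.35%), and the peak at the lower end of Prkch was in the untreated list alone (5.23%). Over the 6 promoter windows, those of Prkca and upstream Prkcd had a peak in both stimulated lists and no unstimulated list, a pattern of 1.73% of all windows. This pattern was singled out after its values were seen. Of the 17 regions, 5 had it (29.4%), at Prkca, Prkcd, Prkce and, with 2 regions, Prkch, against 5.88% of all 15237 regions. By gene that was 4 of 7, against 5.55% of all genes and 6.77% of those with long loci. The count of 5 rested on peaks of low rank. With lists of equal size it was 0 of 11 regions, against 2.99% of all, with −log10 q of at least 3 it was 1 of 5, against 6.49%, and with peaks shared only where they overlapped by at least 0.5 of the longer one it was 2 of 23, against 4.58%. In all, 12 of the 17 regions (70.6%) were missing from the unstimulated untreated list, against 57.4% of all regions. That list was the shortest and had the lowest implied depth, and the part of this in the result was not tested. The unstimulated untreated library serves in 2 of the comparisons, and every other library also in 2, so the comparisons are not independent.

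The last 2 comparisons asked about phenelzine, where the lists differed by 1 region in sum. In unstimulated cells Prkce had 1 region with phenelzine and 0 without, Prkch had 4 against 3, and Prkca had 0 against 1. This was 2 of 7 genes with more, against 15.7% of all genes and 18.2% of those with long loci, and 1 of 7 with fewer, against 8.54% and 9.50%. Regions numbered 3 for the phenelzine list alone (32.6% of all regions in either list), 2 for the untreated list alone (18.1%) and 3 for both. The sums of 6 and 5 turned to 3 with phenelzine and 5 without in lists of equal size, and to 3 and 4 within gene bodies. With flanks of 50 kb they kept their order, at 12 with phenelzine and 6 without. With −log10 q of at least 3 both were 0.

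In stimulated cells Prkch had 6 regions with phenelzine and 5 without, Prkcb had 1 against 0, and Prkcd had 1 against 2, while Prkca and Prkce had equal numbers at the same places. Thus 2 of 7 genes had more, against 10.3% of all genes and 12.3% of those with long loci, and 1 of 7 had fewer, against 16.2% and 19.6%. The phenelzine list alone held 3 regions (21.2% of all regions in either list), the untreated list alone 2 (29.5%), and both held 8. Those 8 made up 8 of 11 regions with phenelzine and 8 of 10 without, against 69.9% and 62.5% for all regions. The sums of 11 and 10 turned to 15 with phenelzine and 17 without when the flank was 50 kb. They moved the other way, to 6 and 2, with lists of equal size, to 8 and 5 within gene bodies and to 4 and 2 with −log10 q of at least 3.

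Other genes of the same pathway were counted from lists chosen with earlier results of these data known. Of 22 genes for other C1 domain proteins and relatives of PKC, RasGRP and their regulators, 17 had a region and 5 had none. Among all protein-coding genes 41.9% had none. The 22 genes had a median of 2 regions over the 4 lists, against 1 over all protein-coding genes. In stimulated against unstimulated untreated cells 8 had more regions and 0 fewer, and among phenelzine-treated cells 5 had more and 6 fewer. With phenelzine 7 had more and 2 fewer in unstimulated cells, and 4 had more and 6 fewer in stimulated cells. Over all protein-coding genes, stimulation went with more regions at 23.6% and fewer at 4.53% in untreated cells. In phenelzine-treated cells these shares were 16.0% and 9.56%. For phenelzine they were 15.7% and 8.54% in unstimulated cells and 10.3% and 16.2% in stimulated cells. Prkci, which encodes an atypical PKC that phorbol ester does not bind, had 2 regions in stimulated phenelzine, 2 in stimulated untreated, 1 in unstimulated phenelzine and 0 in unstimulated untreated cells. Unc13a and Unc13b, for Munc13 proteins that prime vesicles for release in neurons and bind phorbol ester through a C1 domain, had 3, 2, 4 and 1 and 3, 2, 1 and 2 regions in the same order. Dgkd and Dgkq, for kinases that remove diacylglycerol, had 0, 2, 2 and 0 and 0, 2, 2 and 1. The 3 relatives of Rasgrp1, namely Rasgrp2, Rasgrp3 and Rasgrp4, had 0 in every list, as Rasgrp1 did.

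Of 18 genes for the steps around diacylglycerol, PKC and Ras, 15 had a region and 3 had none, where 41.9% of all protein-coding genes had none. A gene-end peak in any list was found at 11, against 34.9% of all genes. In untreated cells 5 had more regions with stimulation and 1 fewer, and in phenelzine-treated cells 3 had more and 3 fewer. Phenelzine went with more regions at 4 and fewer at 2 in unstimulated cells, and with more at 4 and fewer at 5 in stimulated cells. The shares over all genes are those given with the 22 genes above. Pdpk1, for the kinase that primes PKC, had 3 regions in every list and Sos1, for another Ras exchange factor, 2 in every list, while Nras had 1 in each. Stk39, for a stress kinase, had 1, 0, 2 and 0 in the order stimulated phenelzine, stimulated untreated, unstimulated phenelzine and unstimulated untreated. Of the T cell receptor signalling genes, Lcp2 and Zap70 had 0 in every list, as Prkcq and Rasgrp1 did. Lat had 1, 1, 1 and 0 regions and Plcg1 had 0, 1, 0 and 1, in the order given for Stk39.

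The counts of Prkch over the 4 lists, 6, 5, 4 and 3, were shared by no other protein-coding gene. For the other 4 genes with regions, between 52 and 306 genes had identical counts. Their counts summed over the lists to 3 to 5, against 18 at Prkch. At least 8 regions were found at only 0.240% of all genes, so the lack of a match adds little to the high counts themselves.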

How the data were processed

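The deposited data were lists of broad peaks, 1 per ATAC-seq library. The build mm10 and the tools Bowtie2 2.2.5, Trimmomatic 0.33, MACS2, Picard and HOMER are named in the submitters' processing notes, with no parameters or filters. The deposited score, which was not used, equalled the whole part of the −log10 q-value times 10 in nearly all peaks. The deposited fold enrichment is the ratio of a peak to its local background. The deposited p-values and q-values are on the −log10 scale. These values belong to a peak's own list and were used to describe and rank peaks within it. The peak names carry the tag less120, which may mean that only short fragments were used.

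Peaks on chromosomes 1 to 19 and X were merged into regions where they overlapped by at least 1 bp (python 3.11.15, pandas 2.3.3). Gene bodies came from the RefSeq table of GRCm38.p6, which lacks exons, so exon, intron and UTR positions are not given. A region was counted for a gene if it touched the body or 20 kb on either side. On simulated data 100% of 500 regions and 100% of 500 loci were recovered. The simulated regions lay far apart and their peaks always overlapped, so this checked the counting code and not closely spaced peaks. The implied background coverage came from the most common pair of fold and −log10 p in each list, assuming a Poisson tail. That pair was held by few peaks. It was 165 of 9322 in stimulated phenelzine, 190 of 10405 in stimulated untreated, 158 of 7929 in unstimulated phenelzine and 107 of 6519 in unstimulated untreated cells. No p-value was computed, because each condition had 1 library. All 7 genes are described. Pathway genes are named where a contrast differed by at least 2 regions. Those named with a smaller difference or none, apart from the flagged genes, were chosen after their values were seen. Of the pathway list, 2 genes are not reported here and were left out of its counts. The genes and lists were chosen with earlier results of these data known. A total of 6 alternatives were tried, covering the peak threshold, list size, flank and overlap rule.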

Additional observations from a re-analysis of the deposited data

Results flagged for a closer look

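With 1 library per condition, a gene stood out if its regions went one way in one arm and the opposite way in the other. All 7 PKC and RasGRP genes and the 40 pathway genes were checked. None of the 7 did so, and 6 of the 40 did (15%), against 7.37% of all 21627 protein-coding genes. Among the 12568 genes with a region in any list the share was 12.7%. A gene with no region cannot stand out in this way. That holds for Prkcq and Rasgrp1, for 5 of the 22 other C1 domain and family genes and for 3 of the 18 pathway genes. In the count of regions, the effect of stimulation with phenelzine minus that without was −4 at Dgkd (−2 and 2), −3 at Dgkq (−2 and 1), −2 at Unc13a, Bcl10 and Hras (−1 and 1 at each) and 2 at Unc13b (2 and 0). For Unc13b it was the effect of phenelzine that turned, at 1 in stimulated and −1 in unstimulated cells. These differences were not tested.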

How the results depend on the processing

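The values were 17 regions, 2 of them in all 4 lists, and net differences over the 7 loci of 5 for stimulation in untreated cells, 5 for stimulation with phenelzine, 1 for phenelzine in unstimulated cells and 1 for phenelzine in stimulated cells. With −log10 q of at least 3 there were 5 regions and 0 in all 4 lists, and the net differences were 2 for stimulation in untreated cells, 0 for phenelzine in unstimulated cells and 2 for phenelzine in stimulated cells. With lists of 6519 peaks each there were 11 regions, 1 in all 4 lists, and net differences of −3, 3, −2 and 4 in the order above. Within gene bodies there were 11 regions, 1 in all 4 lists, and net differences of 1 for stimulation in untreated cells, −1 for phenelzine in unstimulated cells and 3 for phenelzine in stimulated cells. With flanks of 50 kb the net differences were 11, 3, 6 and −2. Counting peaks as shared only if they overlapped by at least 0.5 of the longer peak left 1 region in all 4 lists. The 5 regions of both stimulated lists and no unstimulated list, a count added after seeing the data, became 1 with −log10 q of at least 3, 0 with lists of equal size and 2 with that overlap rule. The cause of the changed directions was not tested. The net difference for stimulation with phenelzine stayed above 0 under the 6 alternatives, and joining peaks across gaps of 200 bp changed none of these values. Of the 28 counts of regions per gene and list, 14 moved by over 1.5 times with −log10 q of at least 3. The number was 10 with flanks of 50 kb, 8 with lists of equal size and 6 within gene bodies. Many of the 28 were 0 from the start, among them all those of Prkcq and Rasgrp1, and a stricter setting cannot lower a 0. With −log10 q of at least 3 the only count above 0 that did not move was that of Prkca in stimulated phenelzine cells, at 1. No paired analysis was possible because each condition had 1 library and thus no shared replicate numbers, and for the same reason no replicate could be left out. Stimulation was compared within each drug arm and phenelzine within each stimulation state. Counts of 0 to 6 per gene and weak peaks limit every comparison.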
